A study of Homo sapiens with 18 samples.

Results

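The 10 genes described here are a set of feedback inhibitors of toll-like receptor (TLR) signalling, with close partners of the same enzymes. All 10 are called inhibitors below after the name of the set. Whether each one restrains signalling in these cells was not tested. They are *TNFAIP3* (A20), *TNIP1*, *TNIP2*, *TNIP3*, *IRAK3*, *TRAF1*, *TRAF3*, *BIRC2*, *BIRC3* and *CYLD*, and they were taken by gene symbol from the 57500 genes counted in every library. They were measured by RNA-seq in 3 stable lentiviral lines made from THP-1, a human cell line that grew out of a monocytic leukaemia. shNT cells carried a non-target short hairpin RNA, shNR4A2 cells a hairpin against the nuclear orphan receptor *NR4A2*, and shNR4A3 cells one against *NR4A3*. Each line was unstimulated (control) or given lipopolysaccharide (LPS), the bacterial ligand of TLR4, at 2.5 μg/ml for 2 h before lysis. The 6 groups held 3 libraries each, 18 in all. Every group had the lentiviral vector and spent the same time in buffered medium before LPS was added. Each hairpin was present in a single line, so an effect of the hairpin and a property of the line cannot be told apart.

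Read counts per library ran from 16171161 to 23929138 (median 19639071). The cells carried the monocyte markers of their label. The 10 monocyte genes of a fixed list summed to between 1266 and 3457 TPM (a level per transcript length, scaled to the same total in each library) over the 18 libraries, with *CEBPA* the most abundant without LPS and *SPI1* with it, and none was at 0 in any library. The 3 B cell markers summed to at most 6.77 TPM, the 3 epithelial markers to at most 0.919 TPM and the 2 erythroid markers to at most 0.279 TPM. The T cell list summed to between 156 and 195 TPM, nearly all of it *CD4*, which monocytes also carry, and the NK cell list to between 33.1 and 58.4 TPM, nearly all of it *NKG7*. In a bulk sample, more responding cells and more RNA per cell cannot be told apart.

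The hairpins were checked first on their own targets. *NR4A2* with LPS stood at 62.2, 74.7 and 51.3 TPM in shNT cells and at 20.5, 28.3 and 14.8 TPM in shNR4A2 cells, a log2 fold change of -1.52 ± 0.19 (SE, edgeR adjusted p = 0.00265). *NR4A3* with LPS stood at 30.9, 32.3 and 31.9 TPM in shNT cells and at 17.0, 18.2 and 16.7 TPM in shNR4A3 cells, a log2 fold change of -0.82 ± 0.08 (adjusted p = 0.000556). With LPS both targets were therefore lower with no overlap, while still present. Without LPS *NR4A2* was lower in shNR4A2 cells, a log2 fold change of -0.91 ± 0.23 (edgeR adjusted p = 0.0359). *NR4A3* was lower in shNR4A3 cells without LPS, at -2.47 ± 0.49 (edgeR adjusted p = 0.00767). *NR4A1* was called in none of the 4 comparisons with shNT.

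LPS binding to TLR4 brings together MyD88, IRAK kinases and TRAF6, which builds ubiquitin chains that recruit the kinases TAK1 and IKK. IKK releases NF-κB, and NF-κB switches on cytokine genes together with genes that shut the pathway down. A20, encoded by *TNFAIP3*, edits and removes ubiquitin chains, and the proteins of *TNIP1*, *TNIP2* and *TNIP3* (ABIN proteins) bind ubiquitin chains and A20. IRAK-M, encoded by *IRAK3*, holds back IRAK kinases at the receptor. TRAF3, with the ubiquitin ligases cIAP1 (*BIRC2*) and cIAP2 (*BIRC3*), controls the kinase NIK and the MyD88 and TRIF branches of the pathway, TRAF1 binds the other TRAF proteins and the cIAPs, and CYLD is a deubiquitinase that cuts K63-linked and linear chains.

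In the annotation of the deposited tables (GRCh38), *TNFAIP3* (ENSG00000118503) lies at chr6:137867188-137883312 on the plus strand and *IRAK3* (ENSG00000090376) at chr12:66188879-66254622 on the plus strand. *TNIP1* (ENSG00000145901) lies at chr5:151029945-151093577, *TNIP2* (ENSG00000168884) at chr4:2741648-2756376 and *TNIP3* (ENSG00000050730) at chr4:121131408-121227466, all on the minus strand. *TRAF1* (ENSG00000056558) lies at chr9:120902393-120929173 on the minus strand and *TRAF3* (ENSG00000131323) at chr14:102777476-102911500 on the plus strand. *BIRC3* (ENSG00000023445, chr11:102317450-102339403) and *BIRC2* (ENSG00000110330, chr11:102347211-102378670) are neighbours on the plus strand. *CYLD* (ENSG00000083799) lies at chr16:50742050-50801935 on the plus strand. All are protein coding. Genes antisense to *TNFAIP3*, *IRAK3* and *CYLD* overlap them, and since the strand setting of the counting is not given in the sources used here, their reads cannot be told apart. The antisense gene over *TNFAIP3*, AL357060.1, had 19 to 264 counts per library, against 446 to 42101 for *TNFAIP3*, and those over the other genes had at most 21.

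The promoters of the 10 genes were read for 2 motifs on both strands. Each window ran from 250 bases before to 50 after a RefSeq start (GRCh38.p14). The kappaB consensus, the element NF-κB binds, was in 8 of the 18 promoters of these genes and in 6 of the 10 genes, against 11.3% of 35116 promoters and 13.3% of 27305 genes in the whole table. The 10 genes had more windows per gene than the whole table, which raises their share by gene. They were also picked by function, so these shares are a description and not a test. The NR4A monomer element AAAGGTCA was in 0 of the 18, against 1.22% of all promoters. The stretches below lie before a RefSeq start, are written 5′ to 3′ on the strand of the gene and are shown because they belong to the 6 genes with a match. Capitals mark the kappaB matches.
*TNFAIP3*, plus strand, chr6:137867188-137867217: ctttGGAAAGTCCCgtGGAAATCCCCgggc
*TNIP1*, minus strand, chr5:151081057-151081086: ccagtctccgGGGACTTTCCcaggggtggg
*TNIP3*, upstream start, minus strand, chr4:121227511-121227570: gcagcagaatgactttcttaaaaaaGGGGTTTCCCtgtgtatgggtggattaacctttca
*TNIP3*, internal start, minus strand, chr4:121164348-121164407: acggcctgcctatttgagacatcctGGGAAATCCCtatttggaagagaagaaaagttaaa
*TRAF3*, plus strand, chr14:102777391-102777448: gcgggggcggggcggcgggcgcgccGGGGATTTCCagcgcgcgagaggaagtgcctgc
*BIRC3*, first site, plus strand, chr11:102317260-102317319: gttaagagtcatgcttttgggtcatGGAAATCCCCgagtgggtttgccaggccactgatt
*BIRC3*, second site, plus strand, chr11:102317324-102317383: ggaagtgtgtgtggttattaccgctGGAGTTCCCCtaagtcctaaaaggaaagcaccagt
*CYLD*, plus strand, chr16:50741872-50741931: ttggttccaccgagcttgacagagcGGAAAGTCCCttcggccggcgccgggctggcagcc

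*TNFAIP3* held a tandem pair of matches whose first bases lie 67 and 55 bases before its start, and the *BIRC3* pair begins 199 and 135 bases before its start. In *TNFAIP3*, *BIRC3* and *CYLD* the consensus is read on the strand opposite to the gene, in *TNIP1* and *TRAF3* on the strand of the gene, and in *TNIP3* on both. In GENCODE 29 the *TNFAIP3* and *TNIP1* stretches fall in an exon of the gene, the internal *TNIP3* stretch in an intron of *TNIP3*, the *CYLD* stretch in an intron of the antisense gene AC007728.2, and the others between genes. A second *CYLD* match runs from the start site of another promoter and is not shown. The windows of *TNIP2*, *IRAK3*, *BIRC2* and *TRAF1* held no match. A match is a match of letters and does not show binding, and a window without one says nothing of more distant sites.

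In unstimulated shNT cells the 10 genes spanned a wide range of levels per transcript length. *TNIP2* was highest at 86.8 ± 2.24 TPM (SD, n = 3), followed by *TNIP1* (75.5 ± 4.94), *IRAK3* (60.0 ± 7.45), *BIRC2* (50.4 ± 3.12), *TRAF3* (31.8 ± 1.73), *TNFAIP3* (23.8 ± 4.32) and *CYLD* (10.0 ± 1.27). *TRAF1* (1.91 ± 0.11), *BIRC3* (0.884 ± 0.21) and *TNIP3* (0.130 ± 0.09) were at or below 2.03 TPM in every library of the group. Of neighbours in this order, only *IRAK3* and *BIRC2* overlapped in their libraries. With LPS the order was recast: *TNFAIP3* led at 1183 ± 236 TPM, ahead of *TNIP1* (282 ± 41.7), *TNIP2* (97.3 ± 2.13), *TRAF3* (87.4 ± 8.61), *BIRC2* (71.8 ± 2.86), *IRAK3* (55.4 ± 6.36), *TRAF1* (40.3 ± 7.10), *BIRC3* (33.5 ± 1.96), *CYLD* (23.4 ± 1.82) and *TNIP3* (22.2 ± 4.41). There *TRAF1* overlapped both *IRAK3* and *BIRC3*, and *CYLD* overlapped *TNIP3*.

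**Figure D1:**
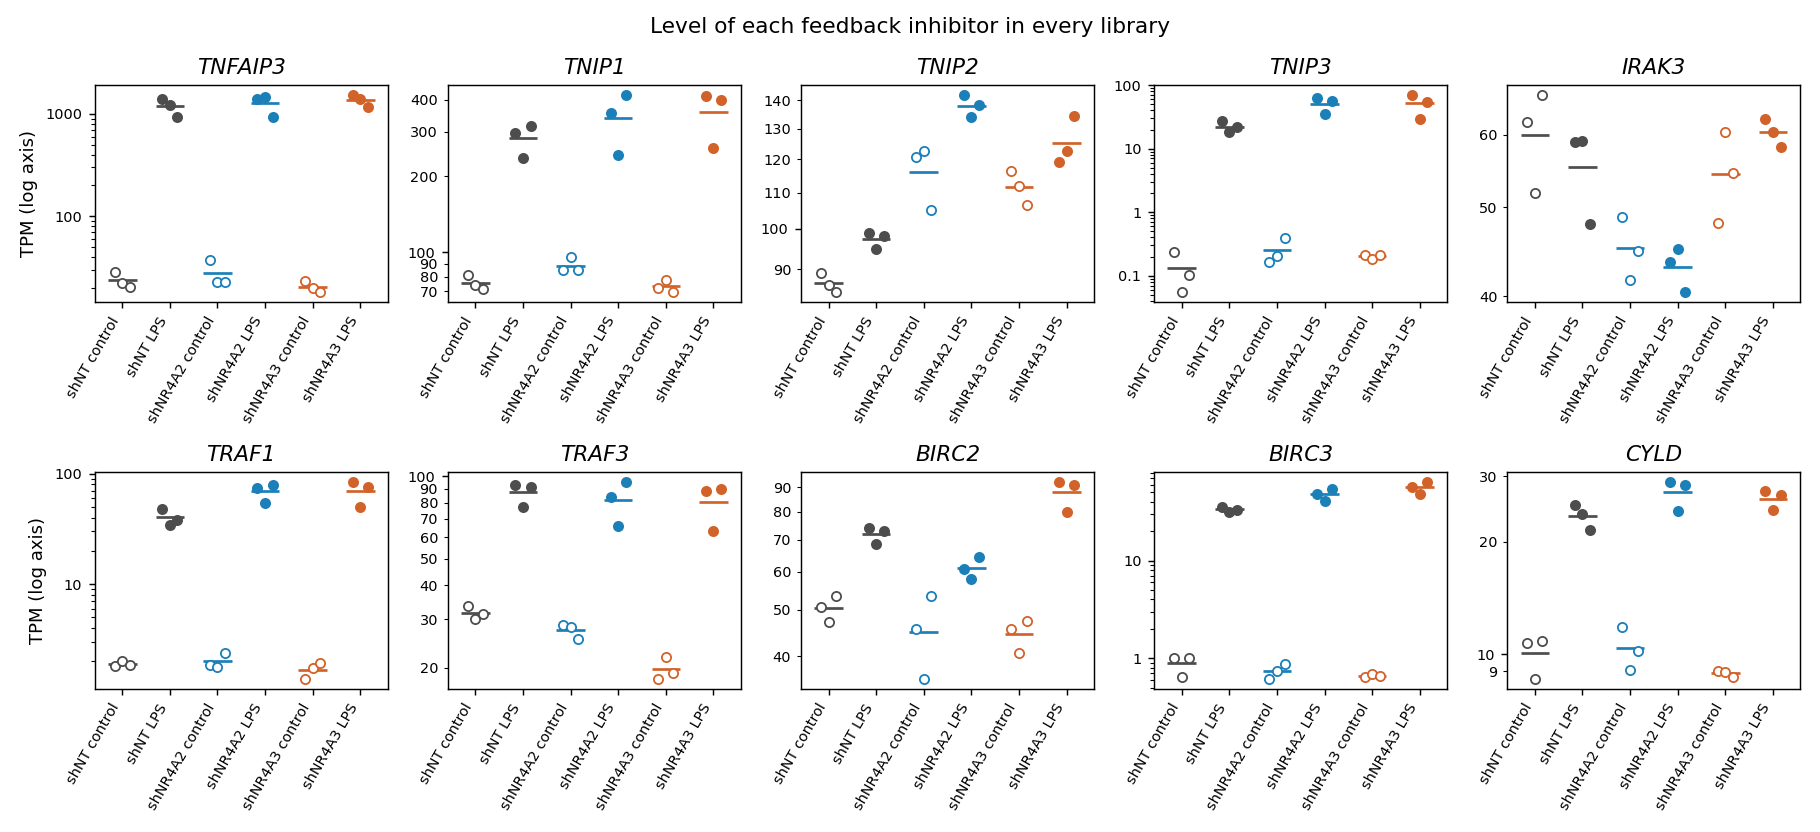
TPM (log axis, scaled separately in each panel) of the 10 genes in every library of the 6 groups, with open points for control, filled points for LPS and a bar at the mean of 3 libraries. In each line, the LPS libraries of *TNFAIP3*, *TNIP3*, *TRAF1* and *BIRC3* all lay above the control libraries of the same gene. *TNFAIP3* was at 37.2 TPM or less in control libraries, and *TNIP3* at 17.98 TPM or more with LPS. *IRAK3* stayed between 40.4 and 66.4 TPM in all 18 libraries.

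The first comparison asked how the inhibitors respond to LPS. In shNT cells 9 of the 10 were higher with LPS and 0 lower (edgeR quasi-likelihood test, Benjamini-Hochberg adjusted p under 0.05), where 11.6% of the 15711 genes tested were called higher and 13.3% lower. In shNR4A2 cells 9 of 10 were higher, where 9.23% of genes were called higher and 10.1% lower. In shNR4A3 cells all 10 were higher, where 13.1% were called higher and 15.0% lower. The median log2 fold change of the 10 genes was 1.90 in shNT, 2.04 in shNR4A2 and 2.40 in shNR4A3 cells, beside -0.01, -0.02 and -0.01 over all genes tested.

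*TNFAIP3*, the source of A20, had 28.6, 22.4 and 20.3 TPM in shNT control libraries and 1389, 1235 and 926 TPM with LPS. The rise was 5.85 ± 0.17 on the log2 scale in shNT (adjusted p = 9.45e-12), 5.78 ± 0.25 in shNR4A2 (adjusted p = 5.79e-09) and 6.29 ± 0.17 in shNR4A3 (adjusted p = 9.45e-10). The LPS libraries of each line stood far above the controls and made it the most abundant of the 10 genes. Its ABIN partners rose by very different amounts. *TNIP1* went from 80.9, 74.2 and 71.3 TPM to 297, 235 and 315 TPM in shNT cells, a log2 fold change of 2.13 ± 0.12 (adjusted p = 1.42e-08), with 2.22 ± 0.20 in shNR4A2 and 2.53 ± 0.18 in shNR4A3 cells. *TNIP2*, already the most abundant at rest, went from 89.2, 86.4 and 84.8 TPM to 98.9, 94.8 and 98.1 TPM in shNT cells, a log2 fold change of 0.38 ± 0.09 (adjusted p = 0.00541). It was the smallest called rise in shNT cells, and its groups did not overlap. *TNIP2* rose by 0.52 ± 0.12 on the log2 scale in shNR4A2 cells (adjusted p = 0.0102) and by 0.40 ± 0.10 in the shNR4A3 line (adjusted p = 0.00927). These calls were lost without shNR4A2 control replicate 3 (adjusted p = 0.0607) and without shNR4A3 LPS replicate 3 (adjusted p = 0.0542).

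*TNIP3* was nearly absent at rest, with 1 to 5 counts in each shNT control library (0.233, 0.0553 and 0.101 TPM), and had 26.8, 17.98 and 21.8 TPM with LPS. Its log2 fold changes of 7.52 ± 0.31, 7.90 ± 0.36 and 8.19 ± 0.47 in shNT, shNR4A2 and shNR4A3 cells were the largest of the 10 genes, but the control groups held only 8, 17 and 11 counts in all, so the size of the fold is loosely set. Every LPS library of every line lay at 17.98 TPM or more.

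Among the TRAF and cIAP genes, the paralogue that was low at rest rose most in each pair. *BIRC3* (cIAP2) had 1.01, 0.637 and 1.01 TPM in shNT controls and 35.6, 31.8 and 33.0 TPM with LPS, a log2 fold change of 5.45 ± 0.15 (adjusted p = 3.76e-12). Its neighbour *BIRC2* (cIAP1) had 50.6, 47.2 and 53.4 TPM and then 73.9, 68.5 and 73.0 TPM, a log2 fold change of 0.73 ± 0.09 (adjusted p = 2.50e-05). At rest the cIAP RNA was thus mostly *BIRC2*, and after LPS both were of the same order. The same held for the TRAF genes. *TRAF1* had 1.83, 2.03 and 1.86 TPM at rest and 48.2, 34.3 and 38.4 TPM with LPS, a log2 fold change of 4.62 ± 0.16 (adjusted p = 4.98e-11). *TRAF3* went from 33.6, 30.2 and 31.5 TPM to 93.3, 77.5 and 91.4 TPM, a log2 fold change of 1.68 ± 0.10 (adjusted p = 2.47e-08). *CYLD*, the deubiquitinase, went from 10.7, 8.58 and 10.8 TPM to 25.1, 23.7 and 21.5 TPM, a log2 fold change of 1.44 ± 0.10 (adjusted p = 1.11e-07). None of these groups overlapped. In the knockdown lines the log2 fold changes were 6.29 and 6.64 for *BIRC3*, 5.39 and 5.62 for *TRAF1*, 1.86 and 2.27 for *TRAF3*, 1.67 and 1.79 for *CYLD*, and 0.71 and 1.21 for *BIRC2*, in the order shNR4A2 and shNR4A3, all of them called.

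*IRAK3* was the one gene not called in shNT and shNR4A2 cells. Its shNT libraries had 62.0, 51.8 and 66.4 TPM at rest and 59.0, 59.1 and 48.0 TPM with LPS, overlapping groups with a log2 fold change of 0.10 ± 0.10 (adjusted p = 0.486). In shNR4A2 cells it had 48.9, 41.7 and 44.8 TPM and then 43.6, 45.1 and 40.4 TPM, a log2 fold change of 0.20 ± 0.11 (adjusted p = 0.257). In shNR4A3 cells it had 48.1, 60.5 and 54.5 TPM and then 62.4, 60.5 and 58.2 TPM, where the fit called a rise of 0.38 ± 0.09 (adjusted p = 0.00901), close to that of *TNIP2* there, although the TPM groups overlapped. It held with each library left out, and on the TMM-scaled CPM the groups did not overlap, at 128.8 to 152.7 CPM against 174.9 to 200.7 CPM. In shNT and shNR4A2 cells the mean was lower with LPS on the TPM scale and the fitted change above 0, so the direction of these uncalled changes depends on the scale, whereas in shNR4A3 cells both were higher. With LPS, the median TPM ratio over genes at 1 TPM or more was -0.23, -0.28 and -0.23 on the log2 scale in shNT, shNR4A2 and shNR4A3 cells, a shift that TMM normalization in edgeR removes.

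**Figure D2:**
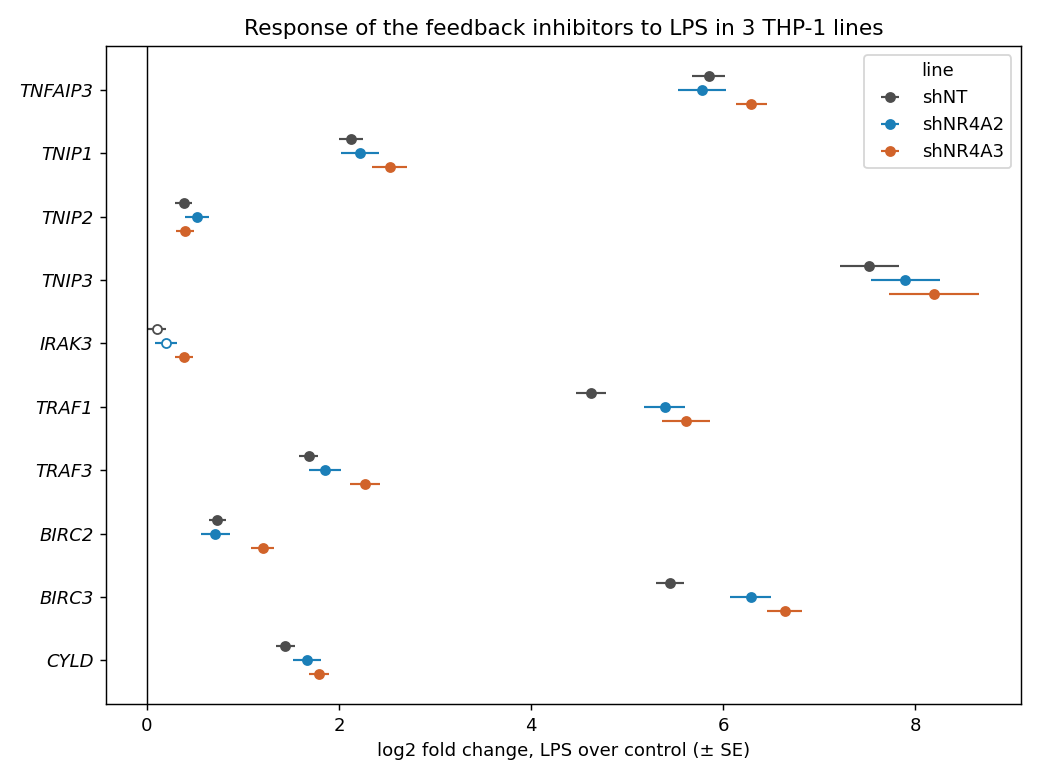
Log2 fold change of each gene with LPS over control (x axis, ± SE from edgeR) in shNT, shNR4A2 and shNR4A3 cells, with filled points for an adjusted p under 0.05. *TNIP3*, *TNFAIP3*, *BIRC3* and *TRAF1* lie at 4.62 or higher in each line, and the *IRAK3* points of shNT and shNR4A2 cells are open.

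Other genes of the pathway, from 4 lists of known members, gave the setting for these responses. Their counts stand beside the shares of all genes called higher and lower that are given above for each line. Of 20 NF-κB subunits and cytokine targets, 20 rose in shNT, 19 in shNR4A2 and 20 in shNR4A3 cells, and none fell. The largest fitted log2 fold changes in shNT cells were those of the chemokines *CCL4* (9.71 ± 0.19), *CXCL2* (8.35 ± 0.18) and *CXCL1* (7.91 ± 0.23). They were followed by the cytokine *IL6*, which had 0 counts in each shNT control library and 43, 15 and 29 counts with LPS, too few to set a fold. A list of 20 other feedback inhibitors was taken by name, and the role of each gene in these cells was not tested. Of these 20, 13 rose and 4 fell in shNT cells. The counts were 13 and 1 in shNR4A2 and 14 and 2 in shNR4A3 cells. Here *NFKBIZ*, an atypical nuclear IκB protein, rose by 7.40 ± 0.12, the RNase gene *ZC3H12A* by 5.38 ± 0.13, the cytokine signalling inhibitor *SOCS3* by 5.36 ± 0.14 and *NFKBIA*, the classical IκBα, by 4.04 ± 0.11 on the log2 scale in shNT cells.

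The genes that carry the signal, and the proteins A20 works with, held calls in both directions. Over all genes, 11.6% were called higher and 13.3% lower in shNT cells. The shares were 9.23% and 10.1% in shNR4A2 and 13.1% and 15.0% in shNR4A3 cells. The few lower calls in the relay are therefore not read as a feature of it. Of 26 genes of the relay from TLR4 to IKK, 23 were tested in shNT cells, of which 8 rose, 2 fell and 13 were not called, with a median of 0.09. The 4 largest were *IRAK2* (4.64 ± 0.17), a kinase of the IRAK family, *MAP3K8* (3.40 ± 0.19), a kinase upstream of ERK, *TICAM1* (2.48 ± 0.12), the adaptor TRIF, and the receptor *TLR4* itself (1.09 ± 0.14). In shNR4A2 cells 5 of 24 rose and 2 fell, and in shNR4A3 cells 8 of 23 rose and 2 fell. Of 13 A20 complex, linear ubiquitin ligase and deubiquitinase partners, 4 rose and 4 fell in shNT cells, 4 and 3 in shNR4A2 cells and 4 and 4 in shNR4A3 cells. The largest of these in shNT cells were *SPATA2* (0.64 ± 0.10), which bridges CYLD to the linear ubiquitin ligase, the deubiquitinase *USP21* (-0.60 ± 0.11), the A20 partner *RNF11* (0.51 ± 0.08) and the deubiquitinase *OTUD7B* (-0.49 ± 0.11).

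**Figure D3:**
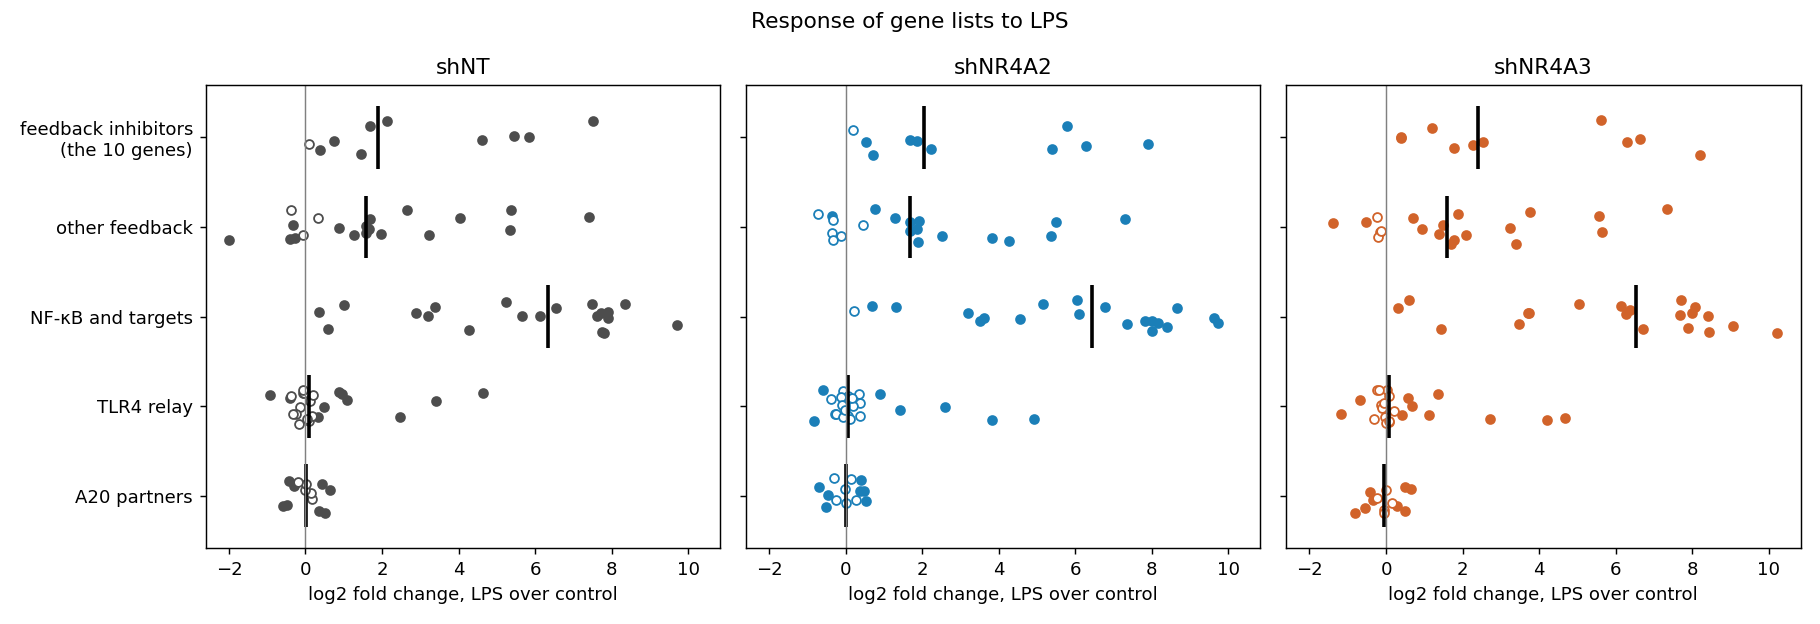
Log2 fold change with LPS over control (x axis) of each tested gene of the 10 inhibitors and the 4 lists (rows, points spread at random within a row), in 3 panels for the lines, with filled points for an adjusted p under 0.05 and a black bar at the row median. The medians of the 10 inhibitors (1.90, 2.04 and 2.40) and of the other feedback inhibitors lie above 1.5, and those of the relay and the A20 partners near 0.

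Next, the lines were compared without LPS. The knockdown lines share the shNT control libraries, so their comparisons with shNT are not independent of each other. *TNIP3* had too few counts to be tested without LPS. In shNR4A2 cells 2 of the 9 tested genes were called, where 6.45% of 15800 genes were. *TNIP2* had 121, 123 and 105 TPM, above the 84.8 to 89.2 TPM of shNT cells, a log2 fold change of 0.42 ± 0.11 (adjusted p = 0.0374). *IRAK3* had 48.9, 41.7 and 44.8 TPM, below the 51.8 to 66.4 TPM of shNT cells, a log2 fold change of -0.41 ± 0.10 (adjusted p = 0.0365). Neither group pair overlapped. Libraries with the same replicate number varied together here, and with the number as a block 4 genes were called, where 23.6% of genes were, the additions being *TNIP1* (0.23, adjusted p = 0.0242) and *TRAF3* (-0.21, adjusted p = 0.0353). Without the block, *TNIP2* lost its call when any library but shNR4A2 control replicate 3 was left out (adjusted p from 0.0644 to 0.174). *IRAK3* lost it without shNT control replicate 1 or 3 or shNR4A2 control replicate 2 or 3 (adjusted p from 0.0568 to 0.146).

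In shNR4A3 cells 2 of the 9 were called as well, where 7.23% of 15322 genes were. *TRAF3* had 18.2, 21.8 and 19.2 TPM, clear of the 30.2 to 33.6 TPM of shNT cells, a log2 fold change of -0.64 ± 0.09 (adjusted p = 0.000893). Its call held with each library left out in turn. *TNIP2* had 117, 112 and 107 TPM, a log2 fold change of 0.41 ± 0.09 (adjusted p = 0.0155), which was lost without shNT control replicate 3 (adjusted p = 0.0736) or shNR4A3 control replicate 1 (adjusted p = 0.0703).

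Set against each other without LPS, shNR4A2 and shNR4A3 cells differed in 0 of the 9 genes, where 3.08% of 15584 genes were called. The nearest was *TRAF3*, with 28.6, 28.2 and 25.5 TPM in shNR4A2 cells, all above the shNR4A3 libraries (log2 fold change 0.43 ± 0.11, adjusted p = 0.0542). It passed with DESeq2 (adjusted p = 0.0227), where 4.26% of genes were called, and with the replicate block (adjusted p = 0.00345), where 11.6% of genes were called. *TNFAIP3* (0.36, adjusted p = 0.0251) and *IRAK3* (-0.31, adjusted p = 0.0315) were also called with the block, and *TRAF3* by edgeR without its filter on low counts (adjusted p = 0.0339), where 2.19% of genes were called. By edgeR without the block, *TNIP1*, *IRAK3* and *TRAF3*, 3 of the 9, had an unadjusted p under 0.05 and were not called. No share of all genes is given at that limit, so this is not read as a difference.

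With LPS, 4 of the 10 inhibitors were called in each knockdown line against shNT cells, beside 2 of the 9 tested without LPS. The difference between these counts was not tested, and *TNIP3*, among the 4, could not be tested without LPS. Fitted on its own 6 libraries without the replicate block, each comparison with shNT called members as higher only. In shNR4A2 cells 2 genes were lower with the block and 1 with all 18 libraries in 1 fit. In shNR4A2 against shNT cells 4 of 10 were higher and 0 lower, where 6.96% of 15590 genes were called. In shNR4A3 against shNT cells 4 of 10 were higher and 0 lower, where 6.45% of 15578 genes were called. *TNIP2*, *TNIP3*, *TRAF1* and *BIRC3* were called in each comparison, against the same 3 shNT libraries. The median log2 fold change of the 10 genes was 0.30 in shNR4A2 and 0.38 in shNR4A3 cells, beside -0.0014 and -0.0085 over all genes.

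*TNIP3* differed most. It had 61.6, 34.5 and 56.1 TPM in shNR4A2 cells and 70.4, 29.7 and 54.5 TPM in shNR4A3 cells, where every library exceeded the highest shNT library at 26.8 TPM. The log2 fold changes were 1.26 ± 0.24 (adjusted p = 0.0175) and 1.29 ± 0.29 (adjusted p = 0.0300). *TRAF1* had 74.4, 54.8 and 79.4 TPM in shNR4A2 and 84.9, 49.8 and 75.3 TPM in shNR4A3 cells, above the 34.3 to 48.2 TPM of shNT cells. Its log2 fold changes were 0.85 ± 0.19 (adjusted p = 0.0272) and 0.87 ± 0.21 (adjusted p = 0.0399).

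*BIRC3* had 48.5, 40.6 and 54.4 TPM in shNR4A2 and 56.8, 48.1 and 64.7 TPM in shNR4A3 cells, above the 31.8 to 35.6 TPM of shNT cells. Its log2 fold changes were 0.58 ± 0.14 (adjusted p = 0.0383) and 0.82 ± 0.13 (adjusted p = 0.00561). *TNIP2* had 142, 134 and 138 TPM in shNR4A2 and 119, 123 and 134 TPM in shNR4A3 cells, again above shNT cells. The differences were 0.56 ± 0.09 (adjusted p = 0.00954) and 0.42 ± 0.09 (adjusted p = 0.0191) on the log2 scale. *TNIP2* was thus called higher in both knockdown lines with and without LPS, whereas *TRAF1* and *BIRC3* were called only with LPS. Without LPS the *BIRC3* differences from shNT were -0.26 ± 0.27 and -0.37 ± 0.27 and those of *TRAF1* 0.07 ± 0.20 and -0.13 ± 0.21, too loosely set at these low counts to show that the lines were alike.

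*TNFAIP3*, the gene with the most RNA, was not called in either comparison. Its LPS libraries had 1400, 1459 and 942 TPM in shNR4A2 and 1540, 1416 and 1171 TPM in shNR4A3 cells, overlapping the 926 to 1389 TPM of shNT cells. The log2 fold changes were 0.15 ± 0.18 (adjusted p = 0.659) and 0.28 ± 0.15 (adjusted p = 0.290). *TRAF3*, lower at rest in shNR4A3 cells, was at 88.3, 63.0 and 90.2 TPM with LPS, overlapping shNT cells (log2 fold change -0.05 ± 0.16, adjusted p = 0.870). *IRAK3* remained low in shNR4A2 cells at 43.6, 45.1 and 40.4 TPM, with no overlap with shNT cells but no call (log2 fold change -0.31 ± 0.10, adjusted p = 0.0911).

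**Figure D4:**
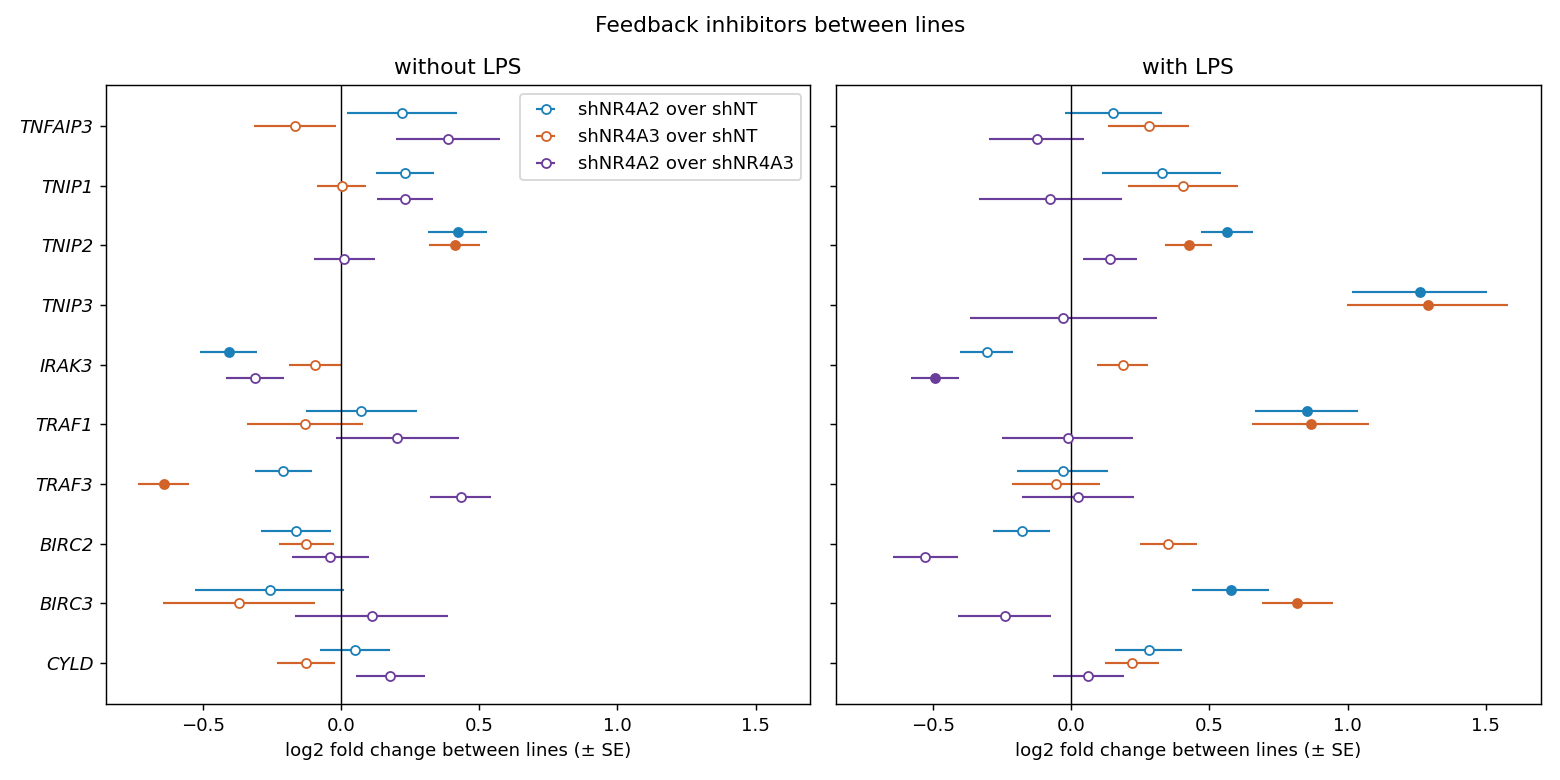
Log2 fold change between lines (x axis, ± SE from edgeR) of each gene without LPS (left) and with LPS (right), with filled points for an adjusted p under 0.05. *TNIP2* is filled to the right of 0 in both panels for shNR4A2 and shNR4A3 over shNT, and *TNIP3*, *TRAF1* and *BIRC3* only with LPS. *TNIP3* was not tested without LPS.

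In fits without the replicate block, these calls rest on few libraries. Libraries were left out only in such fits, where a missing library also leaves the replicate numbers unequal between lines. With 1 library left out, the log2 fold changes of the 4 genes were at least 0.4592 in shNR4A2 and 0.3645 in shNR4A3 cells. Without shNT LPS replicate 2, none of the 4 was called in shNR4A2 cells (adjusted p from 0.0594 to 0.155), and of the 4 in shNR4A3 cells *BIRC3* alone was. *TNIP3*, *TRAF1* and *BIRC3* in shNR4A2 cells were also lost without shNT LPS replicate 3 or shNR4A2 LPS replicate 1, *TRAF1* and *BIRC3* without shNR4A2 LPS replicate 3, and *BIRC3* without shNT LPS replicate 1 (adjusted p from 0.0588 to 0.114). In shNR4A3 cells *TNIP2*, *TNIP3* and *TRAF1* were lost without any library but shNR4A3 LPS replicate 2 (adjusted p from 0.0511 to 0.146), and *BIRC3* was called with each library left out.

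The libraries with LPS also varied by replicate number. *TNIP1*, *TNIP3*, *TRAF1*, *TRAF3*, *BIRC2* and *BIRC3* were lowest in replicate 2 of all 3 lines, and *TNFAIP3* in replicate 3 of all 3. Set side by side by number, *TNIP1*, *TNIP2*, *TNIP3*, *TRAF1*, *BIRC3*, *CYLD* and *TNFAIP3* were higher in 3 of 3 pairs in each knockdown line than in shNT cells on the TPM scale. On that scale *IRAK3* and *BIRC2* were lower in 3 of 3 pairs in shNR4A2 cells, and *TRAF3* was in shNR4A3 cells. The *TRAF3* direction depends on the scale. On the TMM-scaled CPM it was lower in shNR4A3 than in shNT cells in replicate 2 (150.5 against 182.2). In replicates 1 and 3 it was higher (234.6 against 222.4 and 231.2 against 230.1). With the replicate number as a block, 6 of 10 genes were higher and 2 lower in shNR4A2 cells, where 28.1% of genes were called. The additions were *TNIP1* (0.30, adjusted p = 0.00176) and *CYLD* (0.27, adjusted p = 0.00326) as higher and *IRAK3* (-0.30, adjusted p = 0.000446) and *BIRC2* (-0.18, adjusted p = 0.0465) as lower. In shNR4A3 cells 9 of 10 were higher with the block, all but *TRAF3*, where 21.8% of genes were called. There *TNFAIP3* (0.29, adjusted p = 0.00424), *TNIP1* (0.38, adjusted p = 0.00235), *BIRC2* (0.35, adjusted p = 0.00126), *CYLD* (0.22, adjusted p = 0.0305) and *IRAK3* (0.19, adjusted p = 0.0448) were added.

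**Figure D5:**
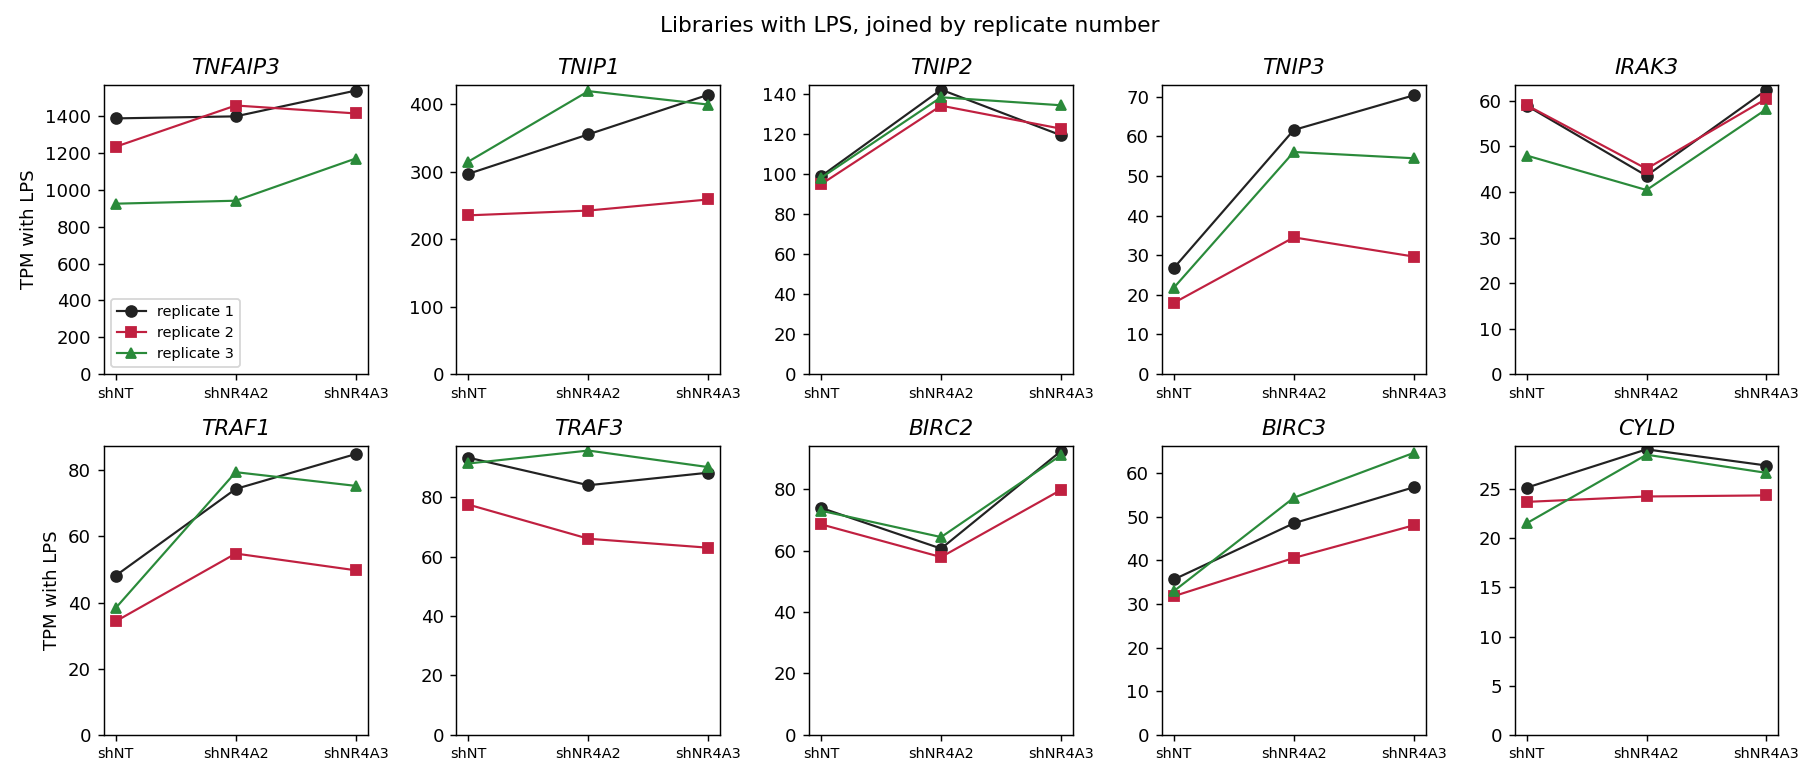
TPM (y axis from 0) of each gene in the 9 libraries with LPS, by line on the x axis, where lines join the libraries with the same replicate number. *TNIP3* and *TRAF1* lie lowest in replicate 2 of every line and are higher in both knockdown lines than in shNT cells at each number, while *IRAK3* dips in shNR4A2 cells at each number.

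Between the knockdown lines with LPS, 1 of 10 genes was called, where 2.33% of 15539 genes were. *IRAK3* was lower in shNR4A2 than in shNR4A3 cells, at 43.6, 45.1 and 40.4 against 62.4, 60.5 and 58.2 TPM, a log2 fold change of -0.49 ± 0.09 (adjusted p = 0.0300). The groups did not overlap, though the call was lost with any 1 of the 6 libraries left out (adjusted p from 0.0537 to 0.126). *BIRC2* showed a like difference, with 60.6, 57.9 and 64.4 TPM in shNR4A2 and 92.4, 79.8 and 91.1 TPM in shNR4A3 cells (log2 fold change -0.53 ± 0.12, adjusted p = 0.0590), and was called by DESeq2 (adjusted p = 0.00796), where 4.5% of genes were called. With the replicate block *IRAK3* (adjusted p = 2.61e-05), *BIRC2* (adjusted p = 3.17e-05) and *BIRC3* (-0.24, adjusted p = 0.00472) were lower in shNR4A2 cells, where 23.6% of genes were called. For *TNIP3* and *TRAF1* the log2 differences between the knockdown lines were -0.03 ± 0.34 and -0.01 ± 0.24, too loosely set to show that the lines were alike.

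Whether the LPS response itself differed between lines was tested by the interaction of line and LPS. With its filter on low counts and without the replicate block, edgeR called no gene in any of the 3 interactions (0% of 16674, 16428 and 16447 genes), and 365, 824 and 396 genes had an unadjusted p under 0.05 for shNR4A2 against shNT, shNR4A3 against shNT and shNR4A2 against shNR4A3. DESeq2 called 2, 10 and 1 genes, none of them among the 10. The largest interaction of the 10 genes was that of *BIRC3* in shNR4A3 against shNT cells, a log2 difference of 1.19 ± 0.27 between responses (unadjusted p = 0.000479, adjusted p = 0.497), followed by *TRAF1* at 0.99 ± 0.33 (adjusted p = 0.886). Both rest in part on low control levels, with 23 to 43 counts per library for *BIRC3* and 45 to 67 for *TRAF1* in these lines. By edgeR, in that interaction *TRAF1*, *TRAF3*, *BIRC2*, *BIRC3* and *CYLD* had an unadjusted p under 0.05, in shNR4A2 against shNT cells *TRAF1* and *BIRC3* did, and between the knockdown lines *BIRC2* did. *TRAF1*, *TRAF3* and *BIRC3* passed the adjusted limit in the first when shNR4A3 LPS replicate 2 was left out (adjusted p of 0.0468, 0.0336 and 0.0213). With the replicate block, which also uses all libraries, *BIRC3* was called in that interaction (1.17 ± 0.22, adjusted p = 0.0379), where 0.134% of genes were. Without the filter on low counts *TRAF1* (adjusted p = 0.00064), *TRAF3* (adjusted p = 0.0155) and *BIRC3* (adjusted p = 0.00069) were called, where 0.314% of genes were. Whether the response of these genes differed between lines thus depended on the fit.

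The pathway lists were compared between lines as well. Of the 13 A20 partners, 0 were called by edgeR or by DESeq2 in each of the 6 comparisons between lines. With the replicate block 0 to 3 were called, where 11.6% to 28.1% of all genes were. By edgeR without the block, 1 to 3 had an unadjusted p under 0.05. No share of all genes is given at that limit for the lists, so counts at it are not read as changes. Over all genes, the shares called against shNT without the block were 6.45% in shNR4A2 and 7.23% in shNR4A3 cells without LPS. With LPS they were 6.96% and 6.45%. Between the knockdown lines they were 3.08% without and 2.33% with LPS. Of the relay, 2 of 25 tested genes were higher in shNR4A2 than in shNT cells without LPS, *LY96* (1.83 ± 0.49) and *CD14* (1.15 ± 0.25), which present LPS to TLR4. *LY96* passed only narrowly (adjusted p = 0.04996) and had too few counts to be tested with LPS between lines. In shNR4A3 cells 3 of 23 were higher without LPS, *CD14* (0.87 ± 0.25), *IRAK2* (0.62 ± 0.15) and *TAB2* (0.36 ± 0.08), an adaptor of TAK1. With LPS 1 of 23 was higher in shNR4A2 cells, *TAB2* (0.67 ± 0.11), and 2 of 23 in shNR4A3 cells, *TAB2* (0.75 ± 0.14) and the kinase *RIPK1* (0.44 ± 0.10). No relay gene was lower in these 4 comparisons. With the block, where 28.1% and 21.8% of all genes were called with LPS in shNR4A2 and shNR4A3 cells, 8 relay genes were higher and 1 lower in the former and 10 higher in the latter.

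Of the 20 other feedback inhibitors, 1 was higher and 1 lower in shNR4A2 than in shNT cells without LPS, *IL1RN* (0.78 ± 0.11), the interleukin-1 receptor antagonist, and *NLRC3* (-1.17 ± 0.22), an inhibitory member of the NLR family. In shNR4A3 cells without LPS 5 were higher and 1 lower. The largest of these were *NLRC3* (-0.90 ± 0.17), *IL1RN* (0.78 ± 0.12), *NFKBIE* (0.69 ± 0.10), which encodes IκBε, and *BCL3* (0.59 ± 0.13), an atypical IκB protein. With LPS 2 were higher and 1 lower in shNR4A2 cells, *IL1RN* (0.89 ± 0.22), *BCL3* (0.67 ± 0.15) and *NLRC3* (-1.10 ± 0.27). In shNR4A3 cells 3 were higher with LPS, *IL1RN* (1.14 ± 0.23), *BCL3* (0.81 ± 0.14) and *NFKBIE* (0.48 ± 0.10), and 0 lower. With the block, 11 were higher and 1 lower with LPS in shNR4A2 cells (28.1% of all genes called), and 9 higher and 1 lower in shNR4A3 cells (21.8% called).

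Of the NF-κB subunits and targets without LPS, 0 of 19 were called in shNR4A2 cells by edgeR or by DESeq2, with 2 at an unadjusted p under 0.05 by edgeR. In shNR4A3 cells without LPS the cytokine gene *TNF* was lower (-1.02 ± 0.21) and the protease gene *PLAU* higher (0.47 ± 0.12). With LPS 1 of 20 was higher in shNR4A2 cells, *IL6* (1.69 ± 0.37), and 2 of 20 in shNR4A3 cells, *IL6* (1.83 ± 0.43) and the adhesion molecule *ICAM1* (0.95 ± 0.18). With the block, 8 were higher and 1 lower with LPS in shNR4A2 cells (28.1% of all genes called), and 11 higher in shNR4A3 cells (21.8% called).

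Monocyte markers moved with the lines too. The 10 markers summed to 1963 to 2300 TPM in shNT, 2560 to 2767 in shNR4A2 and 3028 to 3457 in shNR4A3 cells without LPS, and to 1266 to 1558, 1837 to 2112 and 2204 to 2510 TPM with LPS. Without LPS 4 of 10 were called higher in shNR4A2 and 6 of 10 in shNR4A3 than in shNT cells, and none lower. With LPS 3 of 10 were called higher in shNR4A2 and 5 of 10 in shNR4A3 cells, led by *LYZ* at log2 fold changes of 1.76 and 2.29, and none was lower. The part of this difference in the levels of the inhibitors was not tested.

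Last, the genes most like *TNFAIP3* and *IRAK3* over the 18 libraries were found by Pearson correlation of log2 CPM, among 8900 genes with a mean of at least 10 TPM. For *TNFAIP3* these were *NFKBIZ* (0.997), *IL1B* (0.997), *CXCL8* (0.997), *CD83* (0.996) and *CXCL1* (0.996), all of them measured in the same libraries with and without LPS. For *IRAK3* they were the long non-coding RNA *TUG1* (0.952), the transcription factor *STAT3* (0.929), *RALGAPA2* (0.920), *NCR3LG1* (0.912) and *XPR1* (0.910). *TNFAIP3* lay at 4.589 to 5.606 log2 CPM in control libraries and at 10.48 to 11.29 with LPS. A gene with a large rise with LPS will therefore correlate highly with it. The genes also share libraries and depth, so the values describe likeness over these samples alone.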

How the data were processed

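The authors made polyadenylated RNA libraries from THP-1 lines, sequenced them from both ends and deposited, for each Ensembl gene, the whole-number count of reads, not normalized, and the gene's length. The submitters' processing notes name Trimmomatic 0.36, STAR 2.5.2b, featureCounts, Subread 1.5.2 and GRCh38, without roles. Symbols came from GENCODE 29. TPM was computed from the deposited counts and lengths. Each comparison was fitted on its own 6 libraries (12 for interactions) with edgeR 4.0.16 in R 4.3.3 (filterByExpr, TMM, quasi-likelihood F test, Benjamini-Hochberg adjustment over all genes tested, call at adjusted p under 0.05), after the procedure was tested on simulated data. Exact permutation of 3 against 3 libraries allows no p under 0.1, so TPM groups are described by overlap only. Total counts of at least 16171161 per library leave genes of a few counts imprecise. The libraries are described as independent experiments.

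Replicate numbers came from the labels. Residuals of libraries with the same number correlated above 0.1 in all 3 numbers in 7 of the 9 comparisons of groups, the exceptions being LPS in shNT cells (0.158, 0.00789 and 0.104) and shNR4A3 against shNT without LPS (0.104, 0.0769 and 0.171). Named genes were the 10 inhibitors, the NR4A genes, up to 4 called genes of each list by size of change, and the 5 genes most like *TNFAIP3* and *IRAK3*. The marker *LYZ* was named after its values were seen. The genes and lists were chosen with earlier results of these data known. Alternatives were DESeq2 1.42.0, RLE, no filter, the replicate block, all 18 libraries in 1 fit, CPM in place of TPM, and each library left out.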

Additional observations from a re-analysis of the deposited data

How the results depend on the processing

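The rise of 9, 9 and 10 of the 10 genes with LPS kept its count under every alternative that used all libraries. With the replicate number as a block, the genes called numbered 4751 for LPS in shNR4A2 cells, 3733 and 4385 for shNR4A2 against shNT without and with LPS, 2267 and 3401 for shNR4A3 against shNT, 1800 and 3666 for shNR4A2 against shNR4A3, and 8 and 22 for the interactions of shNR4A2 and shNR4A3 with shNT. Members called with the block were 2 higher and 2 lower (shNR4A2 against shNT without LPS), 6 higher and 2 lower (with LPS), 9 higher (shNR4A3 against shNT with LPS), 2 higher and 1 lower (shNR4A2 against shNR4A3 without LPS), 3 lower (with LPS) and 1 higher (interaction of shNR4A3 with shNT, *BIRC3*, adjusted p = 0.0379). The block changed no other count of members. DESeq2 called 700 genes and 2 members lower between the knockdown lines with LPS, 1 member higher without LPS, and 2, 10 and 1 genes in the interactions. Without the filter on low counts, 1611, 1843, 1839, 838 and 1102 genes were called in shNR4A2 against shNT without and with LPS, shNR4A3 against shNT with LPS and shNR4A2 against shNR4A3 without and with LPS, and 29, 138 and 29 in the interactions. There 1 member was higher and 2 lower between the knockdown lines without and with LPS, and 3 were higher in the interaction of shNR4A3 with shNT. All 18 libraries in 1 fit gave 4601 genes for LPS in shNR4A2 cells, 1691 for shNR4A2 against shNT with LPS, with 1 member lower, and 1032 between the knockdown lines with LPS, with 2 members lower. In shNR4A3 against shNT with LPS, DESeq2 called 5 members higher and edgeR without the filter 6, and in shNR4A2 against shNT with LPS edgeR without the filter called 5, against 4 in each main comparison. The causes were not tested.

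With 1 library left out, genes called ranged from 517 to 1128 (shNR4A2 against shNT without LPS), 342 to 1477 (with LPS), 649 to 975 (shNR4A3 against shNT without LPS), 383 to 1693 (with LPS), 249 to 470 (shNR4A2 against shNR4A3 without LPS), 94 to 217 (with LPS), 0 to 8 and 0 to 44 (interactions of shNR4A2 and shNR4A3 with shNT). Members called higher ranged from 0 to 1 and 0 to 6 in shNR4A2 against shNT without and with LPS, from 0 to 1 and 1 to 6 in shNR4A3 against shNT, and from 0 to 3 in the interaction of shNR4A3 with shNT. Members called lower ranged from 0 to 1 in shNR4A2 against shNT without LPS and against shNR4A3 with LPS. No called log2 fold change of a member reversed under any alternative.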
